A study of Clytia hemisphaerica and Astroides calycularis and Pocillopora acuta with 17 samples.

Results

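Cells of Clytia hemisphaerica planulae that had been fixed in methanol were compared with cells that had been prepared with ACME, a solution of acetic acid and methanol that fixes cells. Members of the comparison were chosen from the labels and a filter alone: every barcode of the methanol matrix and of the ACME matrix with 300 to 75000 unique molecular identifiers (UMIs, each standing for 1 captured RNA molecule), 200 to 5000 genes and at most 20% of its UMIs on the mitochondrial feature. These were 2802 of 2888 barcodes in methanol and 4416 of 4890 in ACME, together 7218 of the 15372 Clytia cells that passed the same filter and of 50609 barcodes deposited for the 3 species of the series. Both samples belong to an earlier dataset that the study put beside its own libraries, and the description of the study places both at 52 hours postfertilization (hpf), an age that the titles of these samples do not give. The preparation of each was taken from its title, since the protocol label of every Clytia sample names ACME and methanol together.

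The planula is the ciliated swimming larva of cnidarians, made of an outer epidermis and an inner gastroderm, with neural cells, gland cells and, in hydrozoans such as Clytia, interstitial stem cells (i-cells) among them. Methanol fixes cells by dehydration. ACME solution was first described for macerating and fixing tissue at once, and it can also be used to fix cells that are already dissociated. Which of these was done for the earlier ACME captures is not given in the sources used here. Single-cell libraries made on a droplet platform count UMIs in each barcode, and RNA released from broken cells can be counted in barcodes of other cells.

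The methanol group was 1 library of planula cells whose label names no strain, allele or treatment. The ACME group was 5 captures of planula cells, again with no strain or treatment in the labels, whose counts lie in 1 matrix, and since the barcodes do not show their capture it was treated as 1 sample. Set beside them were the newer 52 hpf and 66 hpf planulae of the study, each 1 biological sample with 2 technical replicates that were summed, whose cells the study dissociated and then fixed in ACME solution. With 1 sample a side there was no replicate check of methanol against ACME. No test was made, each interval is an exact 95% interval of counting error only, and the method of fixation, the batch of larvae and the making of the library cannot be told apart. Of the kept cells, 1 barcode sequence was shared between methanol and ACME, and 0 to 4 were shared in any pair of the 6 Clytia matrices. Markers from the tables of the study were used for neurosecretory, mucous, epidermal and i-cells and for the QYFamide, GLWamide, HFRIamide and Nk2d neural types. They were found in cells of both preparations, as described below. No list was used for gastroderm, cnidocytes or granular cells, which are also classes of the study.

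Methanol cells were the shallower ones. The matrix held 5398374 UMIs before the filter and the ACME matrix 17628703, of which 5355639 and 17336231 were in kept cells. The median kept cell had 941 UMIs in methanol (interval 883 to 1000) and 1643 in ACME (1541 to 1744), a ratio of 1.75, and the newer 52 hpf and 66 hpf samples had medians of 1609.5 and 1411.5. The methanol median thus lay below those of all 3 ACME-fixed samples. Cells with under 500 UMIs made up 24.2% of methanol and 16.8% of ACME cells. The filter removed 86 barcodes from methanol and 474 from ACME, most of them for mitochondrial UMIs (71 and 432 barcodes over the limit).

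**Figure D1:**
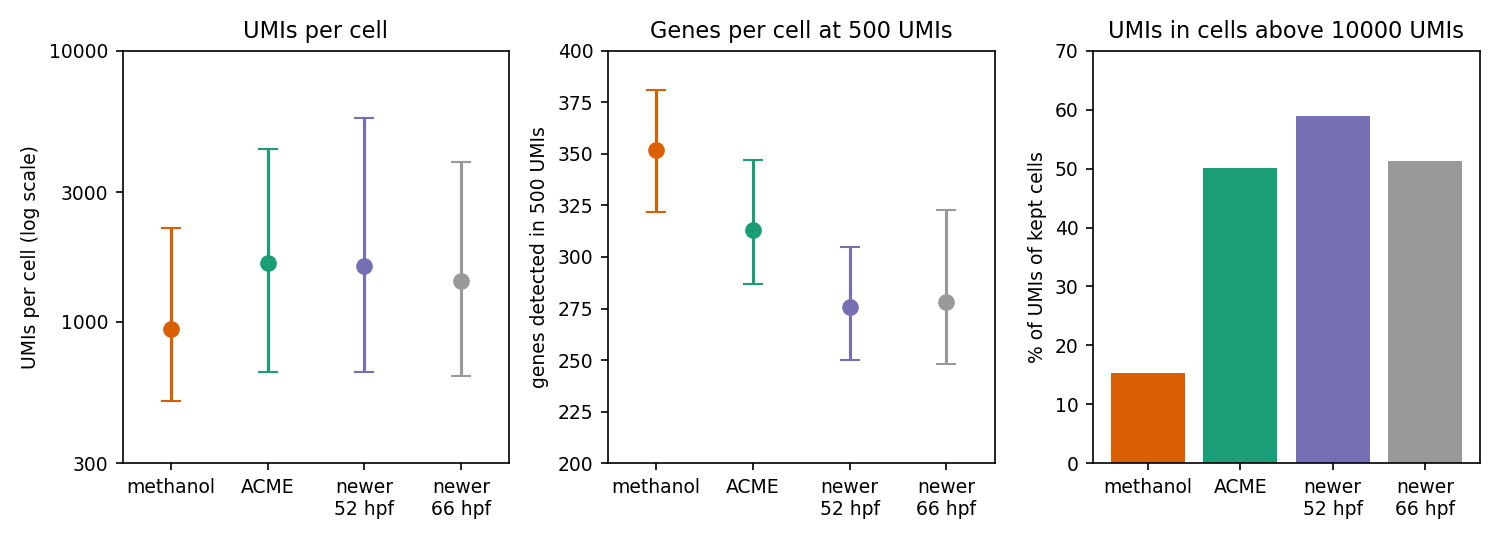
UMIs per kept cell (left, log axis) and genes detected in 500 UMIs per cell (middle, axis from 200), each as the median with bars from the lower to the upper quartile over cells, and the percentage of UMIs held by cells above 10000 UMIs (right) in methanol, ACME and the newer 52 hpf and 66 hpf samples. Methanol had the lowest median depth (941 UMIs), the highest number of genes at equal depth (352) and the smallest share of UMIs in very deep cells (15.4%).

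At equal depth the order of the gene numbers turned around. A median of 557.5 genes was detected per methanol cell and 733 per ACME cell, a ratio of 1.31 in favour of ACME. When each cell with at least 500 UMIs was thinned to 500, methanol cells held a median of 352 genes (2123 cells) and ACME cells 313 (3673 cells), and the newer samples held 275.5 and 278. UMIs of methanol cells were thus spread over more genes, and the 100 genes with most UMIs took 31.3% of all UMIs in methanol, 41.3% in ACME, 52.8% in the newer 52 hpf and 52.3% in the newer 66 hpf sample. In both comparisons of breadth ACME lay between methanol and the newer samples. The mitochondrial genome, counted as 1 feature, took 2.30% of UMIs in methanol and 1.35% in ACME, a ratio of 1.71 (1.70 to 1.72), and in the newer samples its share was 1.24% and 1.77%. In the median cell its share was 2.62% in methanol, 1.38% in ACME, 2.03% at 52 hpf and 2.64% at 66 hpf in the newer samples. By that measure the newer 66 hpf sample stood level with methanol.

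Very deep cells were frequent in ACME and rare in methanol. Above 10000 UMIs lay 60 methanol cells (2.14%) and 511 ACME cells (11.6%), beside 394 (14.5%) in the newer 52 hpf sample, and these cells held 15.4% of the UMIs of methanol, 50.2% of those of ACME and 59.0% and 51.3% of those of the newer samples. A sum over all ACME cells is therefore to a large extent a sum over its deepest cells. The deepest methanol cell had 21212 UMIs and the deepest ACME cell 54286. In the clustering described below, 236 of the 511 deep ACME cells fell in cluster 1, which had PCNA and dUTPase, of DNA replication and nucleotide supply, among its 10 leading genes, against 12 of the 60 deep methanol cells, of which 24 fell in cluster 3.

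Gene levels were compared as CPM, the counts of a gene per 1000000 UMIs, summed over the kept cells of each preparation, over 10975 genes with at least 100 UMIs in both together. A ratio of 2-fold in CPM was passed by 3404 genes (31.0% of those compared). Of these, 3075 (28.0%) were higher in methanol and 329 (3.00%) lower. The median gene stood 0.62 higher in methanol on the log2 scale (1.53-fold), and a direction depends on this shift. Relative to the median gene 331 genes (3.02%) were past 2-fold higher and 1448 (13.2%) lower, and with scaling by the trimmed mean of M values (TMM, a shift of 0.67) the numbers were 254 (2.31%) and 1584 (14.4%). The median ratio went with the level of a gene, from a log2 of 0.68 in 6273 genes with a mean under 30 CPM to -0.50 in 148 genes with at least 1000 CPM. Counting error alone left 1419 of the higher and 170 of the lower genes with an interval wholly beyond 2-fold.

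The spread between samples that shared a fixative was of the same order. ACME against the newer 52 hpf sample, both fixed in ACME, had 4036 genes past 2-fold (36.8%), 3926 higher in ACME (35.8%) and 110 lower (1.00%). Methanol against the newer 52 hpf sample had 7508 (68.4%), 6951 higher in methanol (63.3%) and 557 lower (5.08%). Both counts were taken over the 10975 genes chosen by their UMIs in methanol and ACME together. That choice can leave out genes found mostly in the newer sample. Over the newer 52 hpf sample the median gene stood at a log2 of 0.76 in ACME and 1.44 in methanol, and the directions depend on these shifts. These comparisons share samples with that of methanol and ACME, so each is given for its own sake. Technical replicates differed far less, with 64 of 6700 genes past 2-fold between those at 52 hpf (0.955%, of which 0.552% higher and 0.403% lower) and 73 of 9136 between those at 66 hpf (0.799%, of which 0.394% higher and 0.405% lower). Past 2-fold against both ACME and the newer 52 hpf sample, in the same direction, were 3027 genes higher in methanol (27.6%) and 196 lower (1.79%). Genes named in the following paragraphs were drawn from these, by their ratio to ACME, among genes with at least 500 UMIs. A name or protein domain from the tables of the study was known for 1664 genes, and roles are given from the domain.

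Of the 10 annotated genes with the highest ratios, 3 were dynein heavy chains and 1 was a kinesin. XLOC_009765, a dynein heavy chain, the force-generating subunit of the motors that move cilia and carry cargo along microtubules, had 159.6 CPM in methanol and 43.3 in ACME, and 18.6 in the newer 52 hpf sample. Its log2 ratio to ACME was 1.88 (1.74 to 2.03), and its level was higher in methanol in 17 of 17 clusters compared. Dynein heavy chains XLOC_009136 (log2 1.81) and XLOC_037677 (1.81) and the kinesin XLOC_007196 (1.78), another microtubule motor, stood at a like ratio. The highest ratio was that of MSTRG.7757 (1.92), with 58.4 against 15.4 CPM, an AAA ATPase whose domains are a dynein-related AAA domain and a von Willebrand factor type A domain. The rule of choice set methanol above ACME and the newer 52 hpf sample for these genes. Methanol also lay above the newer 66 hpf sample, which the rule did not use. ACME lay above the newer 52 hpf sample for each of them, with 43.3 against 18.6 CPM for XLOC_009765.

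Among the other annotated genes at the top were proteins of the membrane and matrix. XLOC_043151, an immunoglobulin-domain protein with a kinase domain and a marker of the muscle-enriched epidermis in the study, had 759 CPM in methanol, 206 in ACME, 64.3 at 52 hpf and 131 at 66 hpf in the newer samples, a log2 ratio of 1.88 (1.82 to 1.95). XLOC_010942, a receptor guanylate cyclase by its domains, had 55.5 against 15.3 CPM (1.85), XLOC_035864, a laminin-domain protein of the kind found in basement membranes, 51.9 against 14.9 (1.80), and XLOC_042932, a lipoxygenase that by its domain oxidises unsaturated fatty acids, 89.6 against 25.4 (1.82). The acyltransferase XLOC_011962 stood at 1.83. All 10 genes kept a log2 ratio above 1 without the cells above 10000 UMIs, from 1.11 to 1.26, whereas XLOC_043151 fell below 1 with equal weights of clusters (0.87). The pool past 2-fold against both samples from which these 10 were taken held 191 annotated genes.

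Without regard to annotation, the highest ratios with at least 500 UMIs were those of XLOC_005704 (log2 2.08), XLOC_006686 (2.01), XLOC_012484 (2.01), XLOC_008410 (2.00) and XLOC_029647 (2.00). XLOC_008410 had 428 UMIs in methanol (79.9 CPM) and 346 in ACME but 3 and 22 in the newer 52 hpf and 66 hpf samples, so both samples of the earlier dataset stood far above both newer ones. XLOC_011338 had a similar pattern at a higher level, with 1398 CPM in methanol and 371 in ACME against 2.32 and 2.46 in the newer samples, and was higher in methanol than in ACME in 17 of 17 clusters. These genes have no name or domain in the tables used.

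The annotated genes with the lowest ratios were mostly genes of a single small cluster of cells. Of 56 annotated genes in that pool the 10 with the lowest ratios were a trypsin (MSTRG.14787), 3 collagens, a thrombospondin-domain protein, a C-type lectin, 2 FG-GAP repeat proteins, XLOC_044124 (an annotated transactivation domain) and the neuropeptide precursor HFRIamide. For 9 of these 10, cluster 21 held most of their ACME UMIs, from 83.3% to 95.5%, whereas in methanol it held 39.9% to 51.5% of them. The C-type lectin XLOC_006762, a sugar-binding protein by its domain, had 348 CPM in methanol, 2679 in ACME, 1893 at 52 hpf and 7189 at 66 hpf in the newer samples, a log2 ratio to ACME of -2.95. The collagens XLOC_037899 and XLOC_037910, triple-helix proteins of the extracellular matrix in animals generally, had 42.6 against 416 CPM (log2 -3.29) and 98.2 against 900.3 (-3.20), and MSTRG.14787 had 27 against 941 UMIs (-3.43). All of these were lowest in methanol among the 4 samples, which the rule of choice fixed for all but the newer 66 hpf sample.

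The ratios of these genes depended on how the deepest ACME cells were treated. Cluster 21 had 28 methanol cells (1.09% of clustered cells) and 58 ACME cells (1.40%), with medians of 702 and 2601 UMIs, and 0 of the former and 19 of the latter lay above 10000 UMIs. Without cells above 10000 UMIs the log2 ratio of XLOC_037910 was -0.65, that of XLOC_006762 -0.20 and that of XLOC_044124 0.09. HFRIamide, which cluster 23 held, went from -2.21 to -1.75 on the same step. That step took away cells of cluster 21 in ACME only. Cells with at least 500 UMIs were also thinned to 500, which keeps the deep cells. The log2 ratio was then -1.01 for XLOC_006762, -1.25 for MSTRG.14787 and -1.44 for the thrombospondin-domain protein XLOC_018987. The collagen XLOC_020578 was at -0.75, and the median of all genes at 0.28. The unannotated MSTRG.462, MSTRG.461 and XLOC_018989 had the lowest ratios of all genes with at least 500 UMIs that were also lower against the newer 52 hpf sample (-3.57, -3.55 and -3.54), and the first 2 had 95.5% and 95.6% of their ACME UMIs in cluster 21. MSTRG.25644, another leading gene of cluster 21, was the single gene compared with 0 UMIs in methanol. With 207 UMIs in ACME (11.9 CPM) it was at least 21.3-fold lower, taking a floor of 3 UMIs in the methanol sample, and it had 213 CPM in the newer 52 hpf sample.

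**Figure D2:**
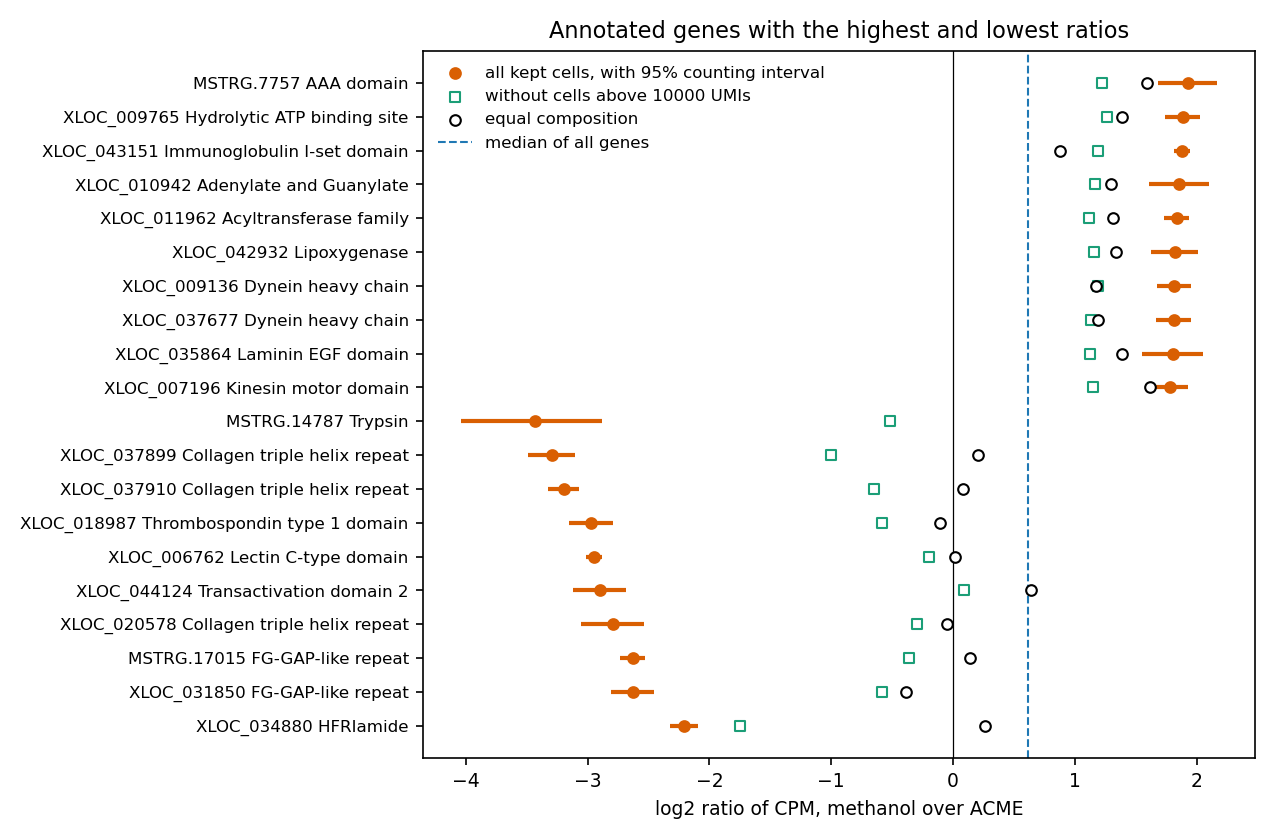
Log2 ratio of CPM, methanol over ACME, of the 10 highest and 10 lowest annotated genes chosen by the rule on size. Filled points with bars are all kept cells with the 95% counting interval, squares leave out cells above 10000 UMIs, open circles weight clusters equally, and the dashed line is the median of all genes (0.62). The higher genes stay above 1 without the deep cells, and the lower genes other than HFRIamide move to between -1.003 and 0.09. The trypsin MSTRG.14787 had too few UMIs in the clusters weighted for a circle.

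In the list of cilia and tubulin the dynein genes stood highest. The list of cilia and tubulin had a median log2 ratio of 1.37 (0.75 relative to the median gene), with 15 of 22 genes past 2-fold higher and 0 lower, beside 28.0% and 3.00% of all genes. Split after seeing the values, all 15 dynein motor genes were past 2-fold higher (1.15 to 1.88), and their summed level was 1741 CPM in methanol, 607 in ACME and 297 and 408 in the newer samples. The 5 tubulins, the subunits of the microtubule itself, were at -0.71 to 0.27, with 5836 CPM in methanol and 6933 in ACME. The median of the whole list was 0.67 without cells above 10000 UMIs, against 0.41 for all genes. Past 2-fold were then 4 genes higher and 1 lower, beside 1092 and 382 of 10050 of all genes. The list as a whole had nearly the same sum in both preparations (7718 and 7678 CPM) although its median was high. In the muscle and actin list the 2 myosin heavy chains, XLOC_029205 and XLOC_011539, were at 1.14 and 1.42 while the 5 actins had a median of -0.04. One actin, XLOC_009088 (1.38), and 1 of 4 tropomyosins, XLOC_009595 (1.31), were also past 2-fold higher. That list, with a median of 0.39 and 4 higher and 1 lower gene of 16, turned to -0.28 with TMM scaling.

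Genes of protein synthesis and energy metabolism stood on the other side. The 82 ribosomal protein genes had a median of -0.62 (-1.24 relative to the median gene). Of them 6 were past 2-fold lower and 0 higher, beside 3.00% and 28.0% of all genes. Genes of any kind with a mean of at least 1000 CPM had a median of -0.50. Ribosomal protein genes together took 180305 CPM in methanol, 273875 in ACME, 378385 at 52 hpf and 359167 at 66 hpf in the newer samples. Without cells above 10000 UMIs they took 17.3% of UMIs in methanol and 21.2% in ACME. Their median was then -0.29, against 0.41 for all genes. Their sum was lower in methanol in 13 of 17 clusters and higher in 4, and was past 2-fold in 0. Among them XLOC_005256, ribosomal protein L35Ae, was set apart, with 384 CPM in methanol and 1362 in ACME, a log2 ratio of -1.83, lower in methanol in 17 of 17 clusters. The 21 nuclear genes of the respiratory chain had a median of -0.73 (-1.35 relative), or -0.49 without cells above 10000 UMIs. Of them 2 were past 2-fold lower, and their sum was lower in methanol in 14 of 17 clusters. One of them, XLOC_002203, an accessory subunit of NADH dehydrogenase, had 105 against 231 CPM (-1.14). The mitochondrial genome itself went the other way, at 0.77 (0.15 relative to the median gene). Without cells above 10000 UMIs it was at 0.36, against 0.41 for all genes. The 13 proteasome genes had a median of -0.56 with 0 past 2-fold.

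Lists of protein families with members that respond to stress in many animals had medians below that of all genes compared. They were drawn by protein domain, so not every gene in them need respond to stress. The median ratio of genes of any kind also fell with their level, to -0.50 at 1000 CPM or more. Of all genes compared 28.0% were past 2-fold higher and 3.00% lower. Of 15 chaperones, which help proteins fold, 0 were past 2-fold, with a median of -0.09 (-0.71 relative to the median gene) and a range of -0.38 to 0.30. The Hsp90 XLOC_006929 had 2978 CPM in methanol and 2754 in ACME, and the Hsp70 XLOC_044101 had 2082 and 2465. Of 6 bZIP transcription factors 0 were past 2-fold, and their median of 0.27 (-0.35 relative) turned to -0.40 with TMM scaling. Of 25 genes in the list of glutathione, thioredoxin and peroxidase metabolism 3 were higher and 1 lower, with a median of -0.01 (-0.63 relative). Superoxide dismutases were in that list too, through the names of their domains. The lower gene was of this kind, XLOC_007033, an iron or manganese superoxide dismutase (113 against 254 CPM). Of the 3 higher genes 2 were haem peroxidases (log2 1.46 and 1.55), and the other haem peroxidase compared was at 0.10. Relative to the median gene, 1 chaperone, 0 bZIP factors and 9 of these 25 genes were past 2-fold lower and 0 were higher, beside 13.2% and 3.02% of all genes. These levels are those of the samples as sequenced, and with 1 sample a side a like level does not show that the preparations were alike.

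**Figure D3:**
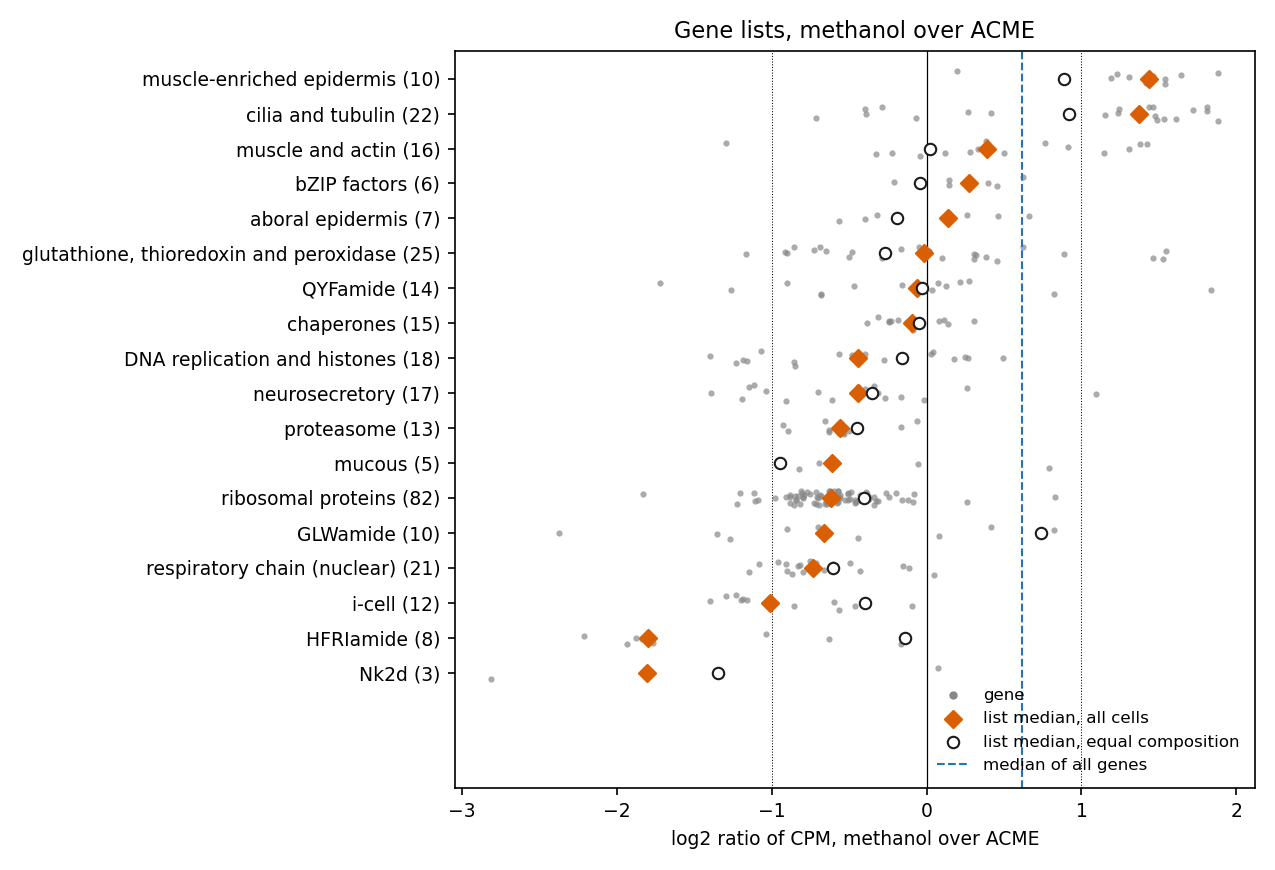
Log2 ratio of CPM, methanol over ACME, of the genes of each list with 3 or more genes compared (number in parentheses). Dots are genes, diamonds are list medians over all cells, open circles are list medians with clusters weighted equally, the dashed line is the median of all genes (0.62), and dotted lines mark 2-fold. Lists between 0 and the dashed line, muscle and actin, bZIP factors and aboral epidermis, fall below 0 with TMM scaling, while muscle-enriched epidermis (1.44) and cilia and tubulin (1.37) stay above it.

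Genes of i-cells and of DNA replication had medians below 0 over all cells, and the values depended on how deep cells were treated. The lists overlap, with PCNA and the dUTPase XLOC_004582 among the genes in both. The 12 genes of the i-cell list had a median of -1.01 and summed to 5703 CPM in methanol and 9846 in ACME. Of them 6 were past 2-fold lower and 0 higher, beside 3.00% and 28.0% of all genes. XLOC_036708, a histone H2A, had 431 against 1136 CPM (-1.40), MSTRG.21281, a subunit of the single-strand DNA binding protein RPA, 370 against 842 (-1.19), and PCNA (XLOC_031923), the sliding clamp of DNA polymerase, 346 against 627 (-0.86). Without cells above 10000 UMIs the i-cell median was 0.01 and that of 18 genes of DNA replication and histones went from -0.44 to 0.20, with 0 genes past 2-fold in either list. That step took away 67.6% of ACME and 8.70% of methanol cells of cluster 1, the cluster with the highest level of the i-cell list. Cells with at least 500 UMIs were instead thinned to 500, which keeps the deep cells at the weight of the others. The i-cell median was then -0.77 with 3 of 12 genes past 2-fold lower. That of DNA replication and histones was -0.27 with 2 lower. For all genes the median was 0.28, with 133 of 4553 past 2-fold lower. Within cluster 1 the i-cell list summed to 18897 CPM in methanol and 22163 in ACME. Cluster 1 held 5.37% of clustered methanol cells and 8.41% of ACME cells.

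Genes of the epidermis were widespread in methanol cells. The muscle-enriched epidermis list holds 10 genes that include a tropomyosin and a talin-like protein. It had the highest median of all lists, 1.44 (0.82 relative to the median gene). Past 2-fold higher were 9 of 10 genes, beside 28.0% of all genes, and relative to the median gene 2 of 10, beside 3.02%. The astacin-family protease XLOC_001418 had 663 CPM in methanol and 228 in ACME (1.54), XLOC_041406 had 375 and 136 (1.46), and XLOC_012022, a protein with talin-like domains that bind actin and vinculin, 155 and 66.2 (1.23). The summed list was 2211 CPM in methanol, 742 in ACME, 233 at 52 hpf and 303 at 66 hpf in the newer samples. It was higher in methanol in 17 of 17 clusters, by a log2 of 0.23 to 3.00, past 2-fold in 13. The smallest ratio was in cluster 5 (3721 against 3180 CPM) and the highest in cluster 10 (248 against 31.1 CPM), and in the epidermis-like cluster 4, where the list was highest in both, it was at 7990 against 3781 CPM. With the cells above 10000 UMIs left out, the median of the list was 0.78, against 0.41 for all genes. Then 1 of 10 genes was past 2-fold higher, beside 1092 of 10050 of all genes. At equal weights of clusters the median of the list was 0.89 with 2 higher, beside 11.6% of all genes.

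The aboral epidermis list was lower in methanol in the 3 epidermis-like clusters and higher in most others. Its 7 genes had a median of 0.14, which turned to -0.53 with TMM scaling. Past 2-fold were 0 of them, beside 31.0% of all genes. The strongest was XLOC_044949, with 9930 CPM in methanol and 8296 in ACME. In the epidermis-like clusters 0, 4 and 6 the list was lower in methanol, with 42363 against 91343, 36888 against 63070 and 75858 against 80759 CPM. In clusters that held little of it the list was higher in methanol, such as cluster 1 (1844 against 272 CPM) and cluster 12 (4099 against 524). Neurosecretory-like cluster 13, which held much of it, was higher in methanol too, with 103110 against 80426.5 CPM, the highest level of any cluster in methanol. Over 17 clusters it was higher in methanol in 12, past 2-fold in 9, and lower in 5, past 2-fold in 1, with the mucous-like cluster and cluster 2 beside the epidermis-like ones. Its median was -0.56 without cells above 10000 UMIs, with 3 of 7 genes past 2-fold lower, beside 382 of 10050 of all genes.

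To see which cell types each preparation recovered, the 6 Clytia matrices were clustered together after integration by matrix. Of the first clusters 3 had 0 unique marker genes, and of these the one with the fewest marker genes in all (15, against 45 and 95) was removed while the other 2 were kept. It held 8.24% of methanol and 6.05% of ACME cells. The rest, 2571 methanol and 4149 ACME cells, formed 24 clusters. Of these 9 were named from the marker lists, with 7 names, and 15 stayed unnamed. The unnamed clusters held 57.6% of methanol and 58.6% of ACME clustered cells, and no cluster was named i-cell-like. Each cluster held cells of both preparations, with at least 22 methanol cells, whereas without integration 1 of 27 clusters had no methanol cell. To make the shares equal 9.40 percentage points of cells would have to move between clusters, against 25.8 points between methanol and the newer 52 hpf sample and 20.4 between ACME and that sample. Integration aligns matrices, so shares were also taken without it, when the first distance was 18.6 points.

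Shares of the named types differed by less than counting error for all 7 names. Epidermis-like cells (clusters 0, 4 and 6) were 33.6% of methanol and 31.4% of ACME cells, a ratio of 1.07 (0.98 to 1.17). Mucous-like cells were 3.70% and 3.98% (0.93), and neurosecretory-like cells, led by PF1 genes, 1.32% and 1.83% (0.72, 0.47 to 1.10). The other named types were rare in both, QYFamide-like cells with 1.13% and 1.45%, Nk2d-like cells with 0.86% and 1.18%, GLWamide-like cells with 0.86% and 0.72%, and HFRIamide-like cells with 0.89% and 0.89%, and with 22 to 29 methanol cells each their ratios span a wide interval, for HFRIamide-like cells 0.57 to 1.73. Without integration 3 methanol cells were HFRIamide-like against 23 in ACME (a ratio of shares of 0.21, 0.04 to 0.70), 10 were Nk2d-like against 49 (0.33) and 5 GLWamide-like against 17 (0.47). Epidermis-like cells then had a ratio of 1.17 (1.08 to 1.28) and neurosecretory-like cells one of 0.55 (0.33 to 0.90). The shares of these types thus depended on integration.

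In 5 clusters there was a ratio of shares whose interval left out 1. Higher in methanol were the epidermis-like cluster 4 (13.3% against 9.21%, a ratio of 1.44, 1.24 to 1.68) and cluster 17 (2.10% against 0.46%, 4.59, 2.68 to 8.19), whose cells were shallow in both (medians of 467.5 and 402 UMIs). Lower in methanol were cluster 1 (ratio 0.64), the epidermis-like cluster 6 (5.72% against 7.74%, 0.74) and cluster 8 (1.28% against 2.17%, 0.59). In clusters 4 and 6 the shares moved in opposite directions while that of the epidermis-like class as a whole stayed within its interval. Only cluster 17 was past 2-fold.

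**Figure D4:**
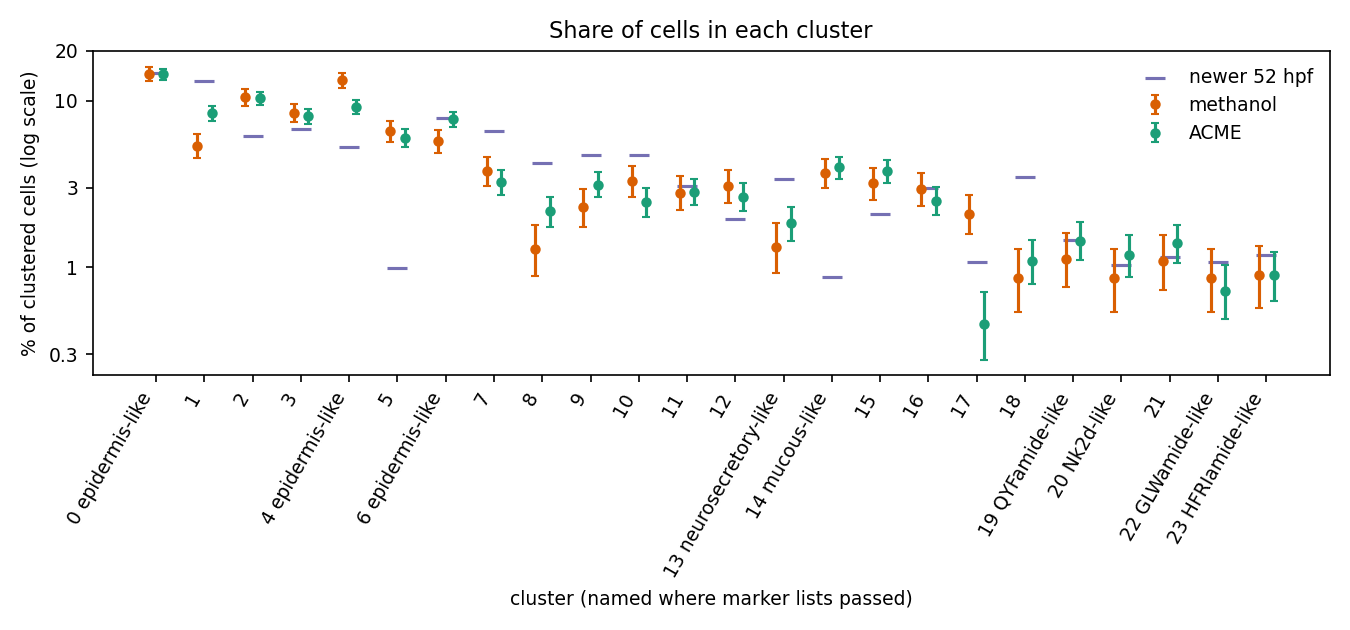
Percentage of clustered cells in each of 24 clusters (log axis) in methanol and ACME, with exact 95% intervals of counting error, and in the newer 52 hpf sample (dashes). Methanol and ACME lie close in most clusters, cluster 17 (2.10% against 0.46%) and cluster 1 (5.37% against 8.41%) stand apart, and the newer sample departs from both in several.

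Depth differed far more between clusters than their shares did. The median of UMIs was lower in methanol in 21 of 24 clusters, and the ratio of ACME to methanol ranged from 0.75 to 13 with a median of 2.02. In the epidermis-like clusters 0 and 6 it was close to 1 (553 UMIs in methanol and 606 in ACME, and 1961 and 2119). In cluster 1 the median methanol cell had 988 UMIs and the median ACME cell 12814, and in cluster 18 they had 1030 and 9526. In cluster 1, 8.70% of methanol cells and 67.6% of ACME cells lay above 10000 UMIs.

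Cells that were given a name from their neighbours did not carry the genes of the type equally. In the 37 HFRIamide-like cells of ACME the 15 genes of that list summed to 111442 CPM and in the 23 of methanol to 41019, a ratio of 0.37, and the median cell held 143 and 3 UMIs of them at median depths of 2501 and 596 UMIs. Clustering used these genes, so these levels are a description. HFRIamide itself (XLOC_034880) had 127 CPM over all methanol cells and 586 over all ACME cells, and the enzymes TauDa (MSTRG.12764) and ROMT-like (XLOC_020007) had 11.95 against 40.7 CPM (log2 -1.77) and 17.9 against 65.8 CPM (-1.88). A GLWamide precursor, pp2-GLWamide (XLOC_017096), from a family of peptides known to trigger metamorphosis in hydrozoan larvae, had 126 against 321 CPM. In GLWamide-like cells the list summed to 39698 in methanol and 103106 in ACME (0.39), with a UMI in 20 of 22 and 26 of 30 cells, at median depths of 637.5 and 1554 UMIs. In cells of other types thinned to 500 UMIs, 11.7% of methanol and 11.3% of ACME cells had a UMI of the HFRIamide list, and 6.03% and 4.75% one of the GLWamide list.

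Few methanol cells of the Nk2d-like cluster had a UMI of the genes behind its name. Of 22 methanol cells in that cluster 4 had a UMI of the 6 list genes, against 40 of 49 ACME cells, at median depths of 674 and 2682 UMIs. At 500 UMIs 16.7% of 12 methanol cells and 65.9% of 44 ACME cells had one, against 1.83% and 2.19% of cells of other types. The list summed to 1719 and 14779 CPM (a ratio of 0.12, 0.08 to 0.17). Its most abundant gene, the unannotated XLOC_030186, had 18.1 CPM over all methanol cells and 127 over all ACME cells (-2.81). Within the cluster that gene made up 19 of 28 methanol and 1895 of 2119 ACME UMIs of the list, so the ratio was largely its own. XLOC_007968 was higher in methanol there (184 against 97.6 CPM, from 3 and 14 UMIs), and the other list genes were lower. QYFamide-like cells differed least, with 14593 against 17903 CPM (0.82), and all but 3 of 29 methanol cells had a UMI of their list. There pp9-QYFamide (XLOC_041442) had 40.7 against 76.1 CPM over all cells (-0.90), and PRDM14 (XLOC_016107), a zinc finger factor, 9.71 against 23.3 (-1.26). Without cells above 10000 UMIs the QYFamide list moved from a median of -0.06, with 1 gene higher and 2 lower of 14, to -1.07 with 8 lower. Of all genes 28.0% were higher and 3.00% lower over all cells, and 382 of 10050 were lower without the deep cells. The 2 genes listed as pan-neural, XLOC_030971 and XLOC_000865, were at 0.61 and -0.16.

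Neurosecretory-like and mucous-like cells showed the same order of levels. Neurosecretory-like cells summed to 54164 CPM of their 18 genes in methanol and 96066 in ACME (0.56), with a median of 15 and 168 UMIs per cell. Over all cells 5 of 17 genes of that list were past 2-fold lower and 1 higher (median -0.44), beside 3.00% and 28.0% of all genes. The lower ones were BETAP_1 (XLOC_042849, 370 against 760 CPM) and PF1_17, PF1_14, PF1_3 and PF1_1 of the PF1 group. Without cells above 10000 UMIs the median of the list was -1.78. Then 14 genes were past 2-fold lower, beside 382 of 10050 of all genes. A single methanol neurosecretory-like cell, with 11075 UMIs, lay above that depth, and 35.1% of the methanol UMIs of PF1_3 (XLOC_041127) were in methanol cells above it. Mucous-like cells summed to 36729 against 80396 CPM (0.46). Yet Mucin1 (MSTRG.6587), the gel-forming component of mucus, was higher in methanol over all cells (803 against 464 CPM, 0.79), while ALK-like (XLOC_005440), a receptor tyrosine kinase, and FKB14-like (MSTRG.7476) were at 840 against 1283 and 585 against 1035 CPM. No mucous gene compared was past 2-fold, and 3 of 5 were past 2-fold lower without cells above 10000 UMIs.

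A larger share of the UMIs of each list lay outside its type in methanol than in ACME. In methanol 49.7% of UMIs of the HFRIamide list lay in other cells, against 15.2% in ACME. For GLWamide genes the shares were 39.3% and 10.6%, for Nk2d genes 85.3% and 20.2%, for neurosecretory genes 45.9% and 21.8%, for mucous genes 53.9% and 27.1%, for QYFamide genes 32.7% and 22.2% and for epidermal genes 33.6% and 23.6%. Above methanol lay mucous genes (88.9%) and epidermal genes (36.7%) in the newer 52 hpf sample, and epidermal genes at 66 hpf (63.0%). The other shares of the newer samples lay below methanol. The types also held unlike shares of all UMIs, HFRIamide-like cells 0.55% in methanol and 0.94% in ACME, mucous-like cells 2.86% and 2.59%. In CPM of all other cells, 6 of 7 lists were higher in methanol, by a ratio of 1.17 for the neurosecretory list to 2.00 for the GLWamide list (1.81 to 2.22), and the Nk2d list was at 0.99. With cells thinned to 500 UMIs 3 of 7 were higher, GLWamide (1.14), QYFamide (1.09) and the epidermal genes (1.53), and neurosecretory (0.85), mucous (0.86) and HFRIamide (0.98) genes turned to lower. Of these ratios at equal depth, that of the epidermal genes alone had an interval above 1. Counted as cells with a UMI at 500 UMIs, some lists stood the other way. Mucous genes had one in 35.2% of other methanol cells (33.1 to 37.4) and 26.9% of other ACME cells (25.4 to 28.4), and neurosecretory genes in 20.9% (19.1 to 22.7) and 18.0% (16.7 to 19.3). For QYFamide genes the shares were 4.96% and 4.90%. The order for mucous and neurosecretory genes thus depended on whether cells or UMIs were counted.

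The epidermal genes were the most widespread ones. At 500 UMIs, 80.04% of 1458 methanol cells that were not epidermis-like had a UMI of the 17 epidermal genes, against 43.9% of 2539 ACME cells, 62.7% of the newer 52 hpf and 75.4% of the newer 66 hpf cells. Median depths of all cells that were not epidermis-like were 1296 and 2460.5 UMIs in methanol and ACME before thinning. For comparison, 98.97% and 97.4% of the epidermis-like cells had a UMI at that depth. A UMI in other cells can come from free RNA or from expression of their own, and which of these it was could not be measured, since barcodes outside the called cells were not used here.

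**Figure D5:**
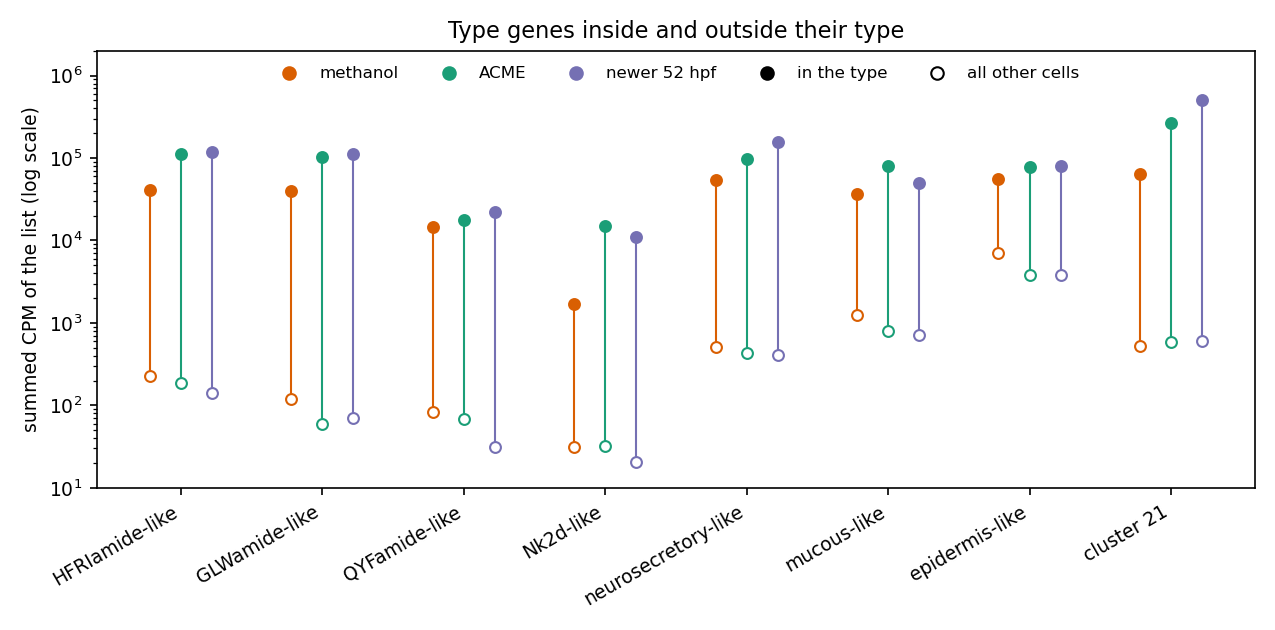
Summed CPM (log axis) of the marker genes of each named type, and of the 10 leading genes of cluster 21, inside the cells of that type (filled) and in all other clustered cells (open), for methanol, ACME and the newer 52 hpf sample. In each type the sum is lower in methanol than in ACME cells, from 0.12 times for Nk2d-like to 0.82 times for QYFamide-like cells. Open points of methanol lie level with or above those of ACME except for cluster 21 (0.90 times). Sums follow the most abundant genes. In epidermis-like cells XLOC_044949 (36745 against 54844 CPM) makes up most of the sum, while XLOC_043151 is higher in methanol (1823 against 772).

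With clusters weighted equally fewer genes differed. CPM averaged over the 17 clusters with at least 30 cells in both preparations (2371 and 3851 cells) put 1414 of 10607 genes past 2-fold (13.3%), 1232 higher in methanol (11.6%) and 182 lower (1.72%), with a median log2 of 0.42. Of the 3075 genes higher over all cells 1110 were also higher here, and of the 329 lower genes 105 were also lower. The clusters of QYFamide-like, GLWamide-like, HFRIamide-like and Nk2d-like cells and clusters 17, 18 and 21 had under 30 cells in a preparation and did not enter, so that type genes such as HFRIamide (0.26) here show cells of other types. The kinesin XLOC_007196 (1.62) and MSTRG.7757 (1.59) led the annotated genes, followed by XLOC_033951, a protein with DIX and calponin homology domains (1.45), and the dynein XLOC_009765 (1.39). There were 7 annotated genes with at least 500 UMIs that were lower against both ACME and the newer sample, among them XLOC_005256 for ribosomal protein L35Ae (-1.52), PF1_3 (XLOC_041127, -1.47), BETAP_1 (XLOC_042849, -1.18) and XLOC_002203 of NADH dehydrogenase (-1.02).

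Some of the lowest ratios at equal weights belonged to genes of a single cluster. XLOC_035579 (log2 -4.32), XLOC_042330 (-3.18), XLOC_040581 (-2.51) and MSTRG.6357 (-2.31), all without annotation, had 73.2% to 93.7% of their ACME UMIs in cluster 11. That cluster stayed unnamed although 4 of 6 Nk2d genes passed the naming level in it, since none was among its leading genes, and it held 2.80% of methanol and 2.84% of ACME cells. XLOC_037198 (-2.22) had 84.9% of its ACME UMIs in the mucous-like cluster and 20.5% of its methanol UMIs there. Within clusters, the share of genes past 2-fold ran from 1.62% in cluster 6 and 2.42% in cluster 0 to 34.1% in cluster 11.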

How the data were processed

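The authors mapped 10x Genomics reads with STARsolo (version not given in the sources used here), called cells with EmptyDrops_CR and a cutoff of 300 UMIs, and deposited matrices of whole UMI counts, with the 5 ACME captures in a single matrix. The chemistry of the earlier libraries is not given in the sources used here. Depth was 5398374 UMIs in methanol and 17628703 in ACME, and UMI intervals cover counting error only.

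Counts of kept cells were summed per preparation and scaled to CPM. A gene at 0 was set to 3 counts. Ratios have exact conditional binomial intervals, shares exact Clopper-Pearson intervals, medians over cells order-statistic intervals. Clustering used the steps and settings of the study (22 principal components, Harmony, 50 neighbors, Leiden resolution 1), with the matrix chosen here as the Harmony batch, so that all ACME captures were 1 batch and technical replicates were separate ones. It was run with scanpy 1.11.5, umap-learn 0.5.12 and leidenalg 0.10.2, and with Harmony recoded in Python 3.11.15 (scikit-learn 1.9.0, scipy 1.17.1, numpy 2.4.6). Doublets were not called. A cluster was named X-like when at least 3 and at least 50% of a list were at least 4-fold above other cells with at least 10 UMIs. It was added after seeing the data that a list gene be among the 10 leading genes or that the whole list pass. Both epidermal lists share the name epidermis-like. The ratio and equal-composition steps were run on simulated counts without variation between samples or between cells of a cluster. That run checks the computation and says nothing of the spread between samples.

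Members, gene lists (from the marker tables of the study, made on these cells) and comparisons were chosen with earlier results of these data known. Named genes were the 10 highest and 10 lowest annotated genes, and the 5 highest and 5 lowest of any annotation, with at least 500 UMIs and past 2-fold against both ACME and the newer 52 hpf sample, by each ratio, and for cell type lists the up to 4 genes with most UMIs. Other genes named were chosen after their values were seen. No gene ID matched the reference gene table (0 of 18761).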

Additional observations from a re-analysis of the deposited data

How the results depend on the processing

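No paired analysis was possible because each preparation is 1 sample and the groups compared share fewer than 2 replicate numbers. Limits are the single sample a side, 22 methanol cells in the smallest clusters and the integration, which sets the shares of rare types.

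Genes past 2-fold (3404, of them 3075 higher and 329 lower) numbered 6347 (5697 and 650) with at least 1 UMI in each preparation, 1408 (1218 and 190) with at least 500 UMIs per gene, 1838 (254 and 1584) with TMM scaling, 506 (373 and 133) in cells thinned to 500 UMIs, and 6421 (5826 and 595) against the newer 52 hpf sample over the genes with enough UMIs in that pair. Fewer or more genes compared account for part of this, with 17124, 5380 and 4553 genes in the first, the second and the thinned setting. Chosen after seeing the data, leaving out cells above 10000 UMIs gave 1474 (1092 higher, 382 lower), sharing 939 higher and 163 lower genes with the full count, and ratios relative to the median gene gave 1779 (331 and 1448). At equal composition 1414 genes became 465 (394 and 71) with at least 500 UMIs, 4893 (4482 and 411) against the newer sample and 848 (657 higher) without cells above 10000 UMIs. The ratio of median UMIs was 1.48 over all barcodes, and that of mitochondrial shares was 1.45 over all barcodes and 1.65 in cells with at least 500 UMIs. The ratio of median genes, ACME over methanol, turned to 0.889 in thinned cells. The distance between cell type shares was 18.6 points without integration, and 3 lists in place of 6 were higher outside their type in thinned cells, where the HFRIamide (0.98), mucous (0.859) and neurosecretory (0.851) ratios reversed. Without cells above 10000 UMIs the i-cell median reversed to 0.00699. Where no construction is named the cause was not tested. Under the other settings 30 summary values stayed within 1.5 times or within their interval, 33 moved beyond that and 1 reversed. Of the values for single types and lists 89 stayed, 60 moved and 4 reversed.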
